A study of Mus musculus with 144 samples.

Results

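Nuclear-encoded genes of the mitochondrial respiratory chain were followed in mouse liver, as 91 of the 51912 genes in the deposited count table. They were taken by symbol: all rows that begin with Nduf followed by a, b, c, s or v, with Uqcr, with Atp5 or with Cox followed by 4 to 8 and a, b or c, and the rows Sdha to Sdhd. Another 7 rows with such a symbol carry the ending -ps and were left out, and a few subunits with other symbols, such as Cox4i1, are not matched by the pattern. By known role the members are 7 core subunits, 29 accessory subunits and 8 assembly factors of complex I, 4 subunits of complex II, 8 of complex III, 18 of complex IV and 15 of complex V. The remaining 2, Atp5s and Atp5sl, were kept apart.

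The data are 144 libraries of 3′ mRNA sequencing (QuantSeq), which counts each transcript at its poly(A) end, from the liver of male C57BL/6J mice. The mice were kept in cycles of 12 h light and 12 h dark and ate at will. Libraries form 4 series of 36. In wild-type mice total RNA, nuclear RNA and polysomal RNA were taken, and Bmal1-/- mice gave total RNA. Within a series the 6 times of day, in hours from the start of the light phase (ZT), are ZT2, 6, 10, 14, 18 and 22, with 6 replicates per time. The age of the mice and the structure of the Bmal1 allele are not given in the labels. Nor do the labels say whether the libraries of a group came from separate mice, so p-values measure the spread between these libraries. The labels name no limit of the knockout to a tissue.

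The respiratory chain sits in the inner mitochondrial membrane. Complex I takes electrons from NADH and complex II takes them from succinate, both pass them by ubiquinone to complex III, and cytochrome c carries them on to complex IV, where oxygen is reduced. The proton gradient that complexes I, III and IV build drives complex V, the ATP synthase. A few catalytic subunits are made from mitochondrial DNA, and all others are nuclear genes that have to be transcribed, exported, translated and imported. In liver the chain powers gluconeogenesis and urea synthesis, and BMAL1 is the transcription factor that, with CLOCK, drives the circadian clock of the cells through E-box elements.

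The start regions of 4 members are printed because the results below turn on them: Ndufaf4 had the clearest daily rhythm, Ndufc1 rose most in polysomal RNA, and Cox5b and Atp5g2 fell most in Bmal1-/- liver among called members that average 50 counts or more and keep 1 direction over the 6 times. Each is the 250 bases before the RefSeq gene start (GRCm38.p6), 5′ to 3′ on the strand of the gene. Ndufaf4 is chr4:24897833-24898082 on the plus strand, Ndufc1 is chr3:51408956-51409205 on the minus strand, Cox5b is chr1:36691237-36691486 on the plus strand and Atp5g2 is chr15:102671048-102671297 on the minus strand. Capitals mark GCGCATGCGC, a stretch that holds GCGCATGC, the core of the NRF1 motif, on both strands in overlap.
Ndufaf4: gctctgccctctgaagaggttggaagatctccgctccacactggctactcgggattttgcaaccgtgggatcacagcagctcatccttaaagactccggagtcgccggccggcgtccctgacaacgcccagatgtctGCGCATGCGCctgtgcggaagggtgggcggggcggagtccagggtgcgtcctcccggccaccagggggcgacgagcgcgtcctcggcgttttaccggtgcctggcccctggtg
Ndufc1: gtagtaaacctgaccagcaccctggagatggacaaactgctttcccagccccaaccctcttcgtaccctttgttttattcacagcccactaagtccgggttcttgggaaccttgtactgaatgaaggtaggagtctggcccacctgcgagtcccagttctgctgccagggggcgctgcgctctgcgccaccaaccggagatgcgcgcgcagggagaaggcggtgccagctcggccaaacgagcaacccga
Cox5b: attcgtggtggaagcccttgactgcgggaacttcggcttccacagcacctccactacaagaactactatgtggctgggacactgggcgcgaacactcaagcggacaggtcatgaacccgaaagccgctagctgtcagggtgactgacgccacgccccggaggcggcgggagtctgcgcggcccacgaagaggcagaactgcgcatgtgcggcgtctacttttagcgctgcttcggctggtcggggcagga
Atp5g2: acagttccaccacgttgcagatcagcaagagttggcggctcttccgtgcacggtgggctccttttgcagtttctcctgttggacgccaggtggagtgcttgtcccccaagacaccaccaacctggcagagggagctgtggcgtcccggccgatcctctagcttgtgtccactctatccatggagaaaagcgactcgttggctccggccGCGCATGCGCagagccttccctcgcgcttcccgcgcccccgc

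Of the 91 members, 77 have such an entry, with 83 start windows. Over windows of 300 bases (250 before to 50 after the start) and both strands, GCGCATGC occurred in 14.5% of the member windows and in 2.71% of all 32851 windows. CCGGAAG, which ETS factors such as GABPA bind, occurred in 21.7% against 8.86%. AAGATGGC, shared by YY1 sites and the translation starts of short leaders, occurred in 15.7% against 2.75%. CACGTG, the E-box, occurred in 10.8% against 7.15%, in windows of Atp5f1, Atp5g1, Atp5g3, Atp5l, Atp5sl, Ndufa7 and Ndufv1. These 9 windows belong to 7 of 77 genes, since the same match of Atp5sl and of Ndufa7 lies in overlapping windows of the gene. The AAGATGGC of Atp5sl was counted in overlapping windows as well. These are matches of letters only. The Ndufaf4 window held GCGCATGC at -113 on its own strand, overlapping the match on the other strand, and again at 2 bases past the start. The Ndufc1 window held AAGATGGC 23 bases past its start, and none of the 4 motifs occurred in the Cox5b window.

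Library totals ranged from 5316601 to 9831142 counts in wild-type total RNA, from 1662449 to 6620128 in nuclear, from 2578048 to 13068044 in polysomal and from 4379549 to 14281894 in Bmal1-/- total RNA. Arntl, the gene of BMAL1, had 6.73 CPM (counts scaled by a library's gene counts) ± 5.40 (SD, n = 36) in wild-type and 11.5 ± 2.98 in Bmal1-/- total RNA. Its 3′ tag checks the genotype labels only if it lies in the altered part of the allele, which is not given. Arntl had a fitted peak-to-trough difference of 3.82 (log2) in wild-type and of 0.28 in Bmal1-/- total RNA. The 4 measured hepatocyte markers summed to at least 13125 CPM in every library. In all 6 polysomal libraries with replicate number 1, 3 lung markers summed to between 55.8 and 915 CPM, against at most 1.45 in the other 30. The striated muscle markers reached 45.3 CPM in the Bmal1-/- library of ZT10 replicate 4, and the wild-type total library of ZT2 replicate 4 stood apart from its group in several members. Values that moved by over 1.5 times or lost a call without polysomal replicate 1 or wild-type ZT2 replicate 4 are given both ways below. No test was run without the library with muscle markers, which was left out only for means of low complex IV isoforms.

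Members took 1.74% ± 0.102 (SD, n = 36) of all wild-type total RNA counts, 1.08% ± 0.181 in nuclear, 2.36% ± 0.510 in polysomal and 1.70% ± 0.197 in Bmal1-/- total RNA. Wild-type means by time lay between 1.68% at ZT6 and 1.78% at ZT18. By complex, wild-type total RNA gave 0.0664% to the complex I core, 0.463% to its accessory subunits and 0.0177% to its assembly factors. Complex II took 0.0846%, complex III 0.229%, complex IV 0.377% and complex V 0.5001%. In Bmal1-/- liver the share was 1.57% in replicates 1 to 3 and 1.84% in replicates 4 to 6, and in polysomal RNA it was 2.95% in replicate 1 and 2.25% in the others. A share of counts says nothing of the RNA per cell. In such bulk samples fewer cells of a type and less RNA per cell cannot be told apart.

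The most counted member in wild-type total RNA was Atp5g3, 1 of 3 genes that encode the same c-ring protein of the ATP synthase rotor. It had 1536 CPM ± 207 (SD, n = 36), more than any other member in each of these means, while its copies Atp5g1 and Atp5g2 had 100.05 ± 20.3 and 11.8 ± 5.15 CPM. Next in order came Cox6c (767 ± 67.3), Uqcrq (688 ± 59.4), Cox6a1 (614 ± 53.2), Atp5a1, the catalytic-head alpha subunit (583 ± 64.4), Atp5k (534 ± 61.2), Cox7a2 (486 ± 57.9) and Uqcrh (448 ± 45.3). From Cox6c on, neighbours in this order differed by less than the sum of their SDs between libraries, which is no test of their means. Cox6c and Uqcrh, further apart in the order, differed by more than that sum. A 3′ read counts a transcript once whatever its length, so CPM can be set side by side between genes, apart from differences in priming and mapping.

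Core subunits, among them those that carry the redox centres or the catalytic sites, were spread over a wide range, from Atp5a1 above down to low levels. In complex I, the flavin and NADH-binding subunit Ndufv1 had 173 ± 28.4 CPM, its partner Ndufv2 96.8 ± 13.4, the iron-sulfur subunits Ndufs1, Ndufs7 and Ndufs8 79.4 ± 10.4, 71.5 ± 14.1 and 72.7 ± 14.98, and the quinone-module subunit Ndufs3 24.95 ± 5.99. In complex II, the flavoprotein Sdha had 298 ± 26.9, the iron-sulfur subunit Sdhb 390.3 ± 44.8 and the membrane anchors Sdhc and Sdhd 143 ± 27.7 and 14.9 ± 27.1 CPM. Without the library of ZT2 replicate 4 Sdhd had 10.6 ± 8.36 CPM (SD, n = 35). The Rieske iron-sulfur protein Uqcrfs1 of complex III had 189 ± 39.9, and its core proteins Uqcrc1 and Uqcrc2 had 102 ± 27.9 and 253 ± 50.3. In complex V, the catalytic beta subunit Atp5b had 412 ± 76.1, the central stalk subunits Atp5c1, Atp5d and Atp5e 231 ± 24.2, 198 ± 43.8 and 183 ± 19.2 CPM. Subunits that stand in a fixed ratio in the enzyme differed in RNA level, as Sdha and Sdhc did by more than the sum of their SDs.

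For the subunits of complex IV with tissue isoforms, the form known from liver made up nearly all counts. Cox6a1, Cox6b1, Cox7a2 and Cox8a had 614, 302, 486 and 244 CPM in wild-type total RNA. Their heart and muscle forms Cox6a2, Cox7a1 and Cox8b had 0.0976, 1.89 and 0.0306 CPM, and the testis form Cox6b2 had 0.214. Ndufa4, a complex IV subunit despite its name, had 145 and its paralog Ndufa4l2, known from hypoxia, had 0.461. No count fell on the testis forms Cox7b2 and Cox8c in any series. For wild-type total RNA this allows at most 0.0106 CPM (3 counts of 281726987), and the limit was highest in nuclear RNA at 0.0201 CPM. Such limits cover counting error only. In the Bmal1-/- library with muscle markers, Cox6a2 reached 9.73 and Cox8b 2.39 CPM. Without it the Bmal1-/- means were 0.121 and 0.0379 CPM, near the wild-type values.

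The symbols of several members have pseudogene rows that may take or give reads. The row Atp5l2-ps had 96.3 CPM ± 11.6 (SD, n = 36) in wild-type total and 4.94 ± 3.44 in polysomal RNA, while Atp5l itself had 12.9 ± 2.68 and 25.5 ± 10.2. How the counting shared reads between such rows is not given, so the level of Atp5l is uncertain.

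Between the 36 wild-type total libraries members varied less than the typical gene, in a comparison not matched for level. The coefficient of variation had a median of 14.4% over the 76 members with a mean of 100 counts or more, and of 20.3% over all 5869 such genes. It was lowest in Ndufc1, an accessory subunit of the complex I membrane arm, at 8.22%. It was highest in Sdhd at 181%, where the library of ZT2 replicate 4 had 165 CPM and the other replicates of that time at most 13.6. Without that library it was 78.7%. Sdhd was also higher in wild-type total RNA in the replicates numbered 4, with a median of 23.2 CPM against 4.87 to 8.86 in the other numbers, and in nuclear RNA their median was 12.1 CPM against 1.51 to 3.24.

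The time series asks which members follow the day. In wild-type total RNA, 3 of 85 tested members had a daily rhythm by edgeR's quasi-likelihood test of a 24 h cosine curve with Benjamini-Hochberg adjustment, where 18.9% of all genes did. At an unadjusted p under 0.05 these were 13 members, or 15.3%, against 31.6% of all genes. The fitted peak-to-trough difference had a median of 0.20 (log2) over members and of 0.32 over all genes. The count varied with the replicates used: 5 members were called in replicates 1 to 3 alone, Atp5c1, Ndufb10 and Uqcrc1 among them, and 0 in replicates 4 to 6 alone, where 3 had an unadjusted p under 0.05. Over all genes these subsets called 1341 and 621 genes, against 2260 with 6 replicates. All 3 members called with 6 replicates belong to complex I. Of these 2, Ndufaf4 and Ndufaf6, are assembly factors, which help build the enzyme and are not part of it.

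Ndufaf4, which works with Ndufaf3 in assembling the quinone-binding part of complex I, had the clearest curve. Its 6 wild-type total RNA libraries at ZT6 ranged from 27.00 to 43.7 CPM (mean 36.3 ± 7.42, SD, n = 6), and those at ZT14 from 44.1 to 73.8 (mean 65.9 ± 11.2). The means at ZT2, 10, 18 and 22 were 42.5 ± 4.70, 59.6 ± 10.9, 53.1 ± 9.20 and 45.5 ± 8.17 CPM. Libraries at ZT6 and at ZT14 did not overlap, and the level was low in the light phase until ZT6 and high from ZT10 to ZT14 (peak-to-trough ratio 1.66, fitted peak at ZT14.9, edgeR adjusted p 0.000189). Replicates 4 to 6 alone gave no call (adjusted p = 0.0798 by edgeR).

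Nuclear RNA of Ndufaf4 followed a like course at a lower level. Its means were 15.98 ± 3.65 CPM at ZT2, 19.6 ± 4.88 at ZT6, 31.5 ± 6.51 at ZT10, 38.1 ± 19.7 at ZT14, 36.3 ± 12.1 at ZT18 and 28.3 ± 14.7 at ZT22 (SD, n = 6). It was the only member of 82 called in the nuclear series (peak-to-trough ratio 2.32, fitted peak at ZT15.2, edgeR adjusted p 8.26e-05), where 5.99% of all genes were called and 2 members had an unadjusted p under 0.05. In replicates 1 to 3 alone it was not called (edgeR adjusted p = 0.0653). The libraries of ZT2 and ZT14 overlapped slightly, since the lowest at ZT14 had 18.2 CPM and the highest at ZT2 had 20.4. The interaction test called no difference in its rhythm from that in total RNA (edgeR unadjusted p = 0.117, adjusted p = 0.9997), and 0 of the 85 members had an unadjusted p under 0.05; 0.0% of all genes were called there.

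In polysomal RNA, which holds transcripts loaded with ribosomes, Ndufaf4 had its highest mean at ZT14 too, at 64.4 ± 24.3 CPM against 41.3 ± 8.98 at ZT6. It missed the threshold by edgeR (peak-to-trough ratio 1.46, fitted peak at ZT14.1, edgeR adjusted p 0.0719) and passed with DESeq2 (adjusted p = 0.0413), which called no other member. By edgeR 0 of 84 members were called in polysomal RNA, 7 with an unadjusted p under 0.05, where 7.9% of all genes were called. In replicates 4 to 6 alone 3 members were called, and 13 in a fit of all 4 series. Over all genes these settings called 607 and 2733 genes, against 845 in the main fit. No member was called for a difference in rhythm between polysomal and total RNA by edgeR, 0 of 85 had an unadjusted p under 0.05, and 0.0% of all genes were called. These interactions were not run in DESeq2.

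In Bmal1-/- total RNA the Ndufaf4 means lay between 41.5 ± 4.47 CPM at ZT2 and 49.6 ± 6.06 at ZT10 (SD, n = 6), and all times overlapped. Its rhythm differed between the genotypes by edgeR's interaction test (adjusted p = 0.0345), as 5.18% of all genes did. Among members 2 of 85 were called, and for 4 the unadjusted p was under 0.05. None of 84 members was called rhythmic in Bmal1-/- liver by edgeR or by DESeq2, and 3 had an unadjusted p under 0.05 by edgeR, where 0.00825% of all genes were called.

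Ndufaf6, needed for the early assembly of complex I, was the other gene whose rhythm differed between the genotypes (adjusted p = 0.0145 by edgeR's interaction test). Its wild-type total RNA libraries ranged from 15.5 to 18.4 CPM at ZT2 (mean 16.6 ± 1.27, SD, n = 6) and from 16.7 to 28.00 at ZT14 (mean 22.8 ± 3.62; peak-to-trough ratio 1.28, fitted peak at ZT14.2, edgeR adjusted p 0.0439). In Bmal1-/- liver the mean was highest at ZT2, 29.6 ± 3.44 CPM, and lowest at ZT18, 23.8 ± 4.24. So the ZT2 libraries of the genotypes did not overlap, while those of ZT14 did. Its wild-type rhythm was not called in a fit of all 4 series (edgeR adjusted p = 0.256), without the filter on low counts (0.0580) or in either group of 3 replicates. Both interaction calls, for Ndufaf4 and Ndufaf6, were lost in a fit of all 4 series and in either group of 3 replicates alone.

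Ndufc1 had a small rhythm on a high and even level, with its peak late in the dark phase. Its wild-type means were 160.2 ± 10.98 CPM at ZT2, 136 ± 10.5 at ZT6, 139 ± 2.02 at ZT10, 143 ± 6.19 at ZT14, 145 ± 5.25 at ZT18 and 156 ± 12.9 at ZT22 (SD, n = 6; peak-to-trough ratio 1.21, fitted peak at ZT22.3, edgeR adjusted p 0.00726). The call was lost in replicates 4 to 6 alone (edgeR adjusted p = 0.435), in a fit of all 4 series (0.254) and without the filter on low counts (0.0873). The libraries of ZT2 and ZT6 still overlapped, with ranges of 141 to 171 and 123 to 146 CPM.

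**Figure D1:**
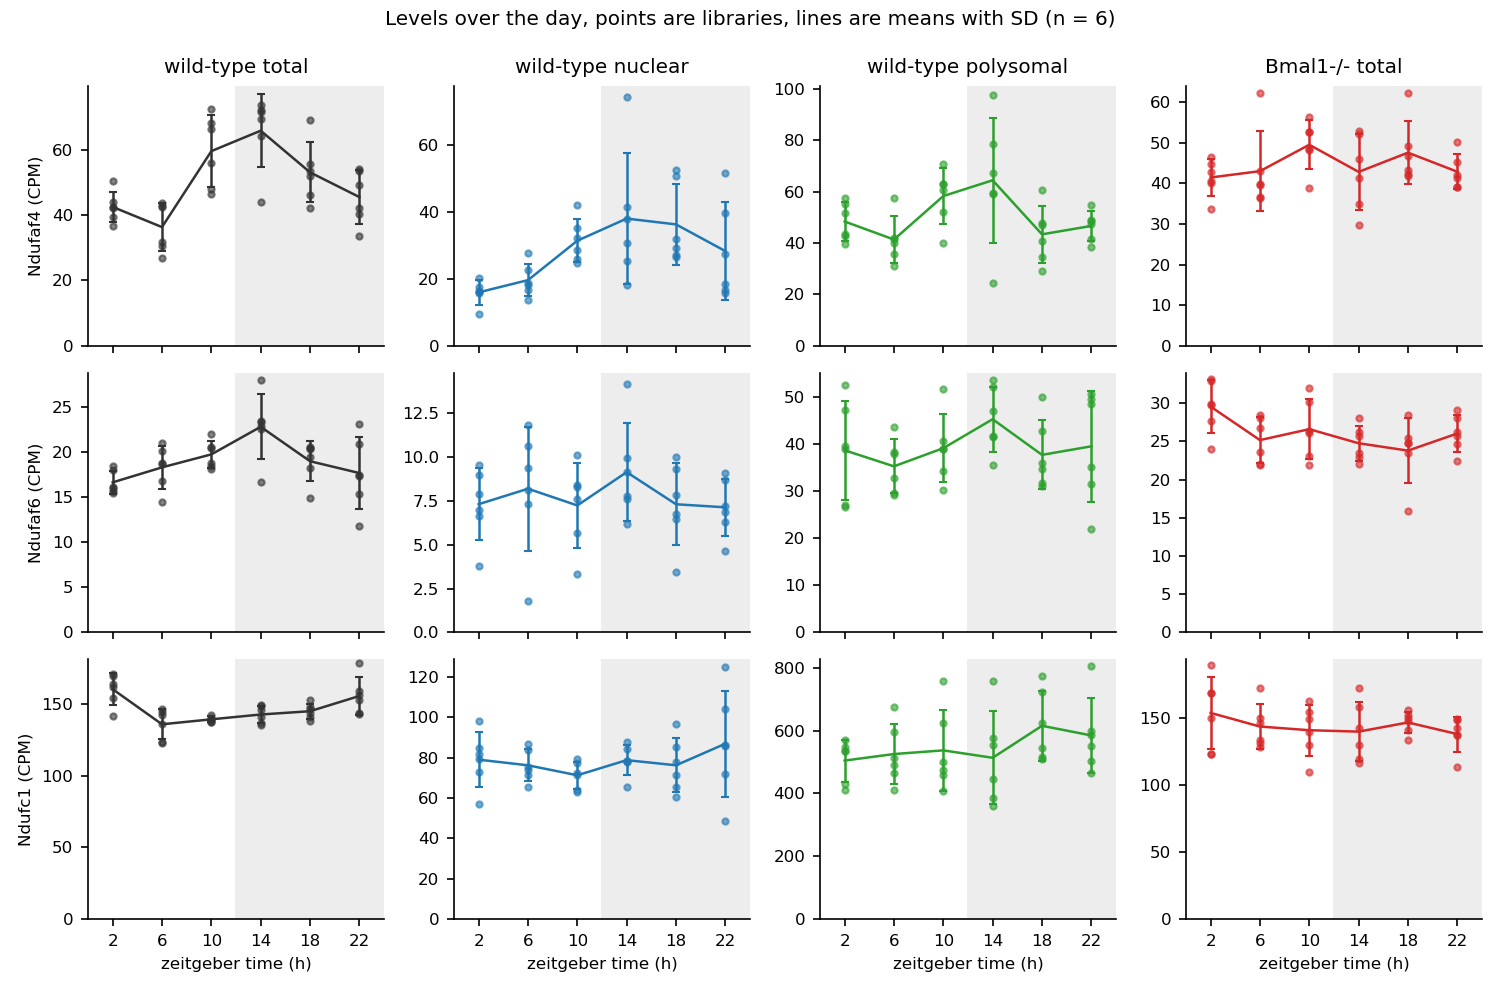
CPM of Ndufaf4, Ndufaf6 and Ndufc1 against zeitgeber time in wild-type total, nuclear, polysomal and Bmal1-/- total RNA; points are libraries, the line joins means of 6 libraries with SD bars, the dark phase is shaded, and each panel has its own vertical axis from 0. Ndufaf4 is highest near ZT14 in the wild-type series and its Bmal1-/- means lie between 41.5 and 49.6 CPM; Ndufaf6 is higher in Bmal1-/- than in wild-type total RNA, most of all at ZT2.

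What level members have without the clock factor is asked by setting Bmal1-/- beside wild-type total RNA. By the contrast of the 6 time-point means, 41 of 85 tested members differed by edgeR's quasi-likelihood test (48.2%, where 44.1% of all genes did). Of these 5 were higher and 36 lower, where 22.4% of all genes were higher and 21.7% lower. The median log2 difference was -0.12 over members, with 67 of 85 below 0, and 0.01 over all genes. This tilt depends on the scaling: with library totals in place of TMM factors, a choice made after seeing the data, 13 members were higher and 12 lower, the member median was -0.019 and that of all genes 0.10. No member had all 36 libraries of a genotype apart from those of the other, as 0.0579% of all genes had. The 3 comparisons with wild-type total RNA share those 36 libraries.

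By complex, the calls in Bmal1-/- liver were 2 lower of 7 for the complex I core (Ndufs3 at -0.21 and Ndufs1 at -0.16 log2) and 2 higher and 13 lower of 29 for its accessory subunits. Among the 8 assembly factors 2 were higher and 1, Ndufaf4, was lower (log2 difference -0.25, SE 0.06, edgeR adjusted p 0.000278). In complex II 1 of 4 was lower, in complex III 3 of 8 (Uqcr11, Uqcr10 and Uqcrb, at -0.32, -0.25 and -0.12), and in complex V 8 of 15. Complex IV had the lowest median, -0.21, with 1 higher and 8 lower of 12 tested. Without TMM factors the lower calls of 8 named members were lost, those of Ndufs1, Ndufs3, Cox5a, Cox7c, Cox8a, Atp5a1, Atp5b and Atp5g2, and each kept its sign. In replicates 4 to 6 alone Ndufs1, Ndufs3, Cox5a, Cox6a1, Cox7a1, Cox8a and Atp5a1 were not called, and in replicates 1 to 3 alone Ndufa4, Atp5a1 and Atp5b were not.

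Cox5b, a zinc-binding regulatory subunit of cytochrome c oxidase (1:36691487-36693388, GRCm38), fell most among well-counted members. Its 36 wild-type libraries ranged from 166 to 252 CPM (median 215), and in Bmal1-/- total RNA from 45.99 to 229 CPM (median 114). Of the Bmal1-/- libraries 32 lay below the lowest wild-type library, and at 5 of the 6 times the groups did not overlap. The means were 211 CPM ± 20.1 (SD, n = 36) and 120.1 ± 41.5 CPM (log2 difference -0.93, SE 0.09, edgeR adjusted p 1.96e-14), and 1.90-fold lower by the fit. Medians of the Bmal1-/- libraries by replicate number ran from 71.98 CPM in replicate 4 to 155 in replicate 2.

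Cox7a2l, a factor linked to supercomplexes of complexes III and IV (17:83501917-83514333), rose in RNA level. Its wild-type libraries ranged from 66.02 to 224 CPM (median 182) and its Bmal1-/- libraries from 155 to 381 CPM (median 250.1). Here 24 Bmal1-/- libraries lay above the highest wild-type library, and 3 of the 6 times did not overlap (log2 difference 0.41, SE 0.06, edgeR adjusted p 3.57e-08). The lowest wild-type value is the library of ZT2 replicate 4, and without it the log2 difference was 0.39. In replicates 1 to 3 alone the difference was 0.20 and in replicates 4 to 6 alone 0.61, called in both.

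**Figure D2:**
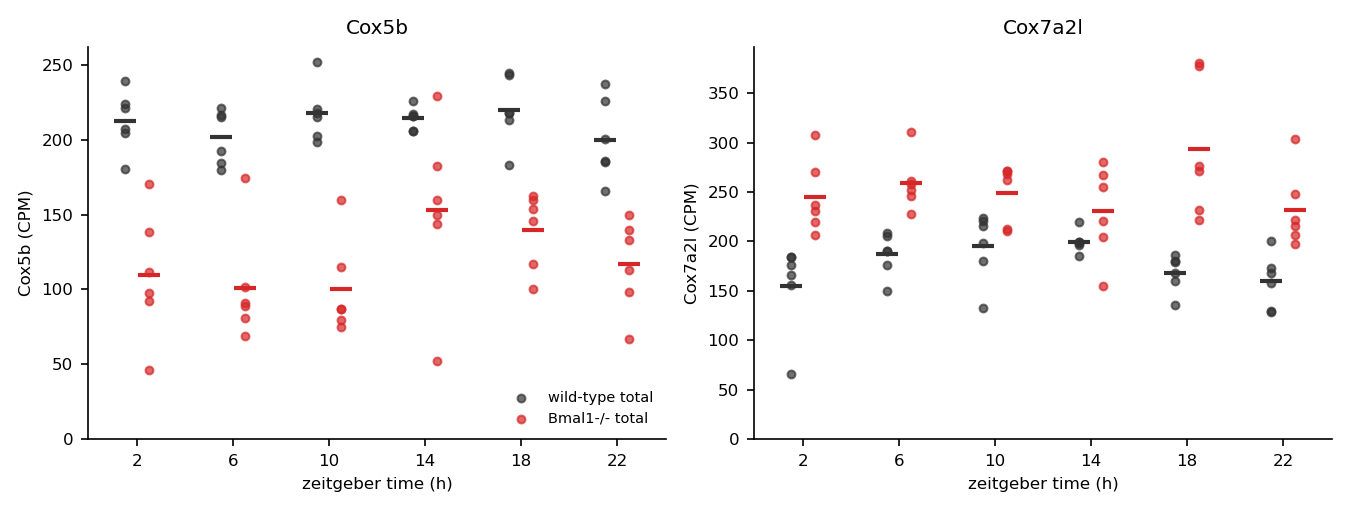
CPM of Cox5b and Cox7a2l in each total RNA library of wild-type and Bmal1-/- liver by zeitgeber time; points are libraries and bars are means of 6. Cox5b is lower in Bmal1-/- libraries with a wide spread, and Cox7a2l is higher; its low wild-type point at ZT2, 66.0 CPM, is replicate 4.

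The other rises were in complex I: Ndufaf6 (19.03 ± 3.18 to 25.98 ± 3.57 CPM, log2 difference 0.36, SE 0.05, edgeR adjusted p 3.75e-08), the assembly factor Ndufaf2 (12.3 ± 5.11 to 16.2 ± 3.63, log2 difference 0.32, SE 0.12, edgeR adjusted p 0.0301), and the accessory subunit Ndufa12, which takes the place of Ndufaf2 at the end of assembly (86.02 ± 16.1 to 112 ± 16.7, log2 difference 0.30, SE 0.06, edgeR adjusted p 5.96e-05). The acyl carrier protein Ndufab1 had a log2 difference of 0.14 that turned to -0.10 in replicates 1 to 3 alone. In replicates 4 to 6 alone Ndufaf2 had 0.05 and Ndufa12 0.21, and neither was called (edgeR adjusted p = 0.699 and 0.0885). The Ndufaf2 call was also lost in a fit of all 4 series and without the filter on low counts.

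Other falls were Atp5g2 (11.8 ± 5.15 to 9.11 ± 4.13 CPM, log2 difference -0.48, SE 0.17, edgeR adjusted p 0.0157), Ndufa5 (169 ± 17.00 to 133 ± 26.4, log2 difference -0.44, SE 0.06, edgeR adjusted p 2.08e-09), the ATP synthase delta subunit Atp5d (198 ± 43.8 to 162 ± 16.4, log2 difference -0.38, SE 0.06, edgeR adjusted p 8.42e-07), Ndufa13, also known as the cell death regulator GRIM-19 (163 ± 16.3 to 136 ± 18.4, log2 difference -0.36, SE 0.05, edgeR adjusted p 6.95e-10), and Cox7c (257 ± 67.5 to 217 ± 61.4, log2 difference -0.34, SE 0.11, edgeR adjusted p 0.00920). For each of these the ranges of the genotypes overlapped. In replicates 1 to 3 alone Atp5g2, Atp5d and Cox7c had -0.26, -0.16 and -0.24 and were not called (edgeR adjusted p = 0.546, 0.104 and 0.335), while Ndufa5 and Ndufa13 were called in both groups of 3 replicates. Cox7a1, at low counts, had a log2 difference of -0.94. Sdhd had -0.80, and without the wild-type library of ZT2 replicate 4 it had -0.47 and was not called (edgeR adjusted p = 0.0522), nor was it in replicates 1 to 3 alone (-0.11). The other copies of the c-ring gene, Atp5g1 and Atp5g3, had log2 differences of -0.07 and -0.09 and were not called.

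Markers of other cells moved between the genotypes as well. Of 5 Kupffer cell markers 4 were lower in Bmal1-/- liver, with sums from 86.7 to 588 CPM in wild-type and from 65.3 to 374 in Bmal1-/- libraries. Of 4 erythroid markers 3 were lower, with medians of 1379 and 883 CPM, and the 4 cholangiocyte markers had median sums of 8.30 and 18.2 CPM. Both tested adipocyte markers of 5 were lower, with sums up to 124 CPM in wild-type and up to 4.63 in Bmal1-/- libraries. Stellate cell markers, 2 higher and 2 lower of 5, had median sums of 277 and 338 CPM, and hepatocyte markers, 1 higher and 1 lower of 4, had 77834 and 60935 CPM. Their part in the member differences was not tested.

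**Figure D3:**
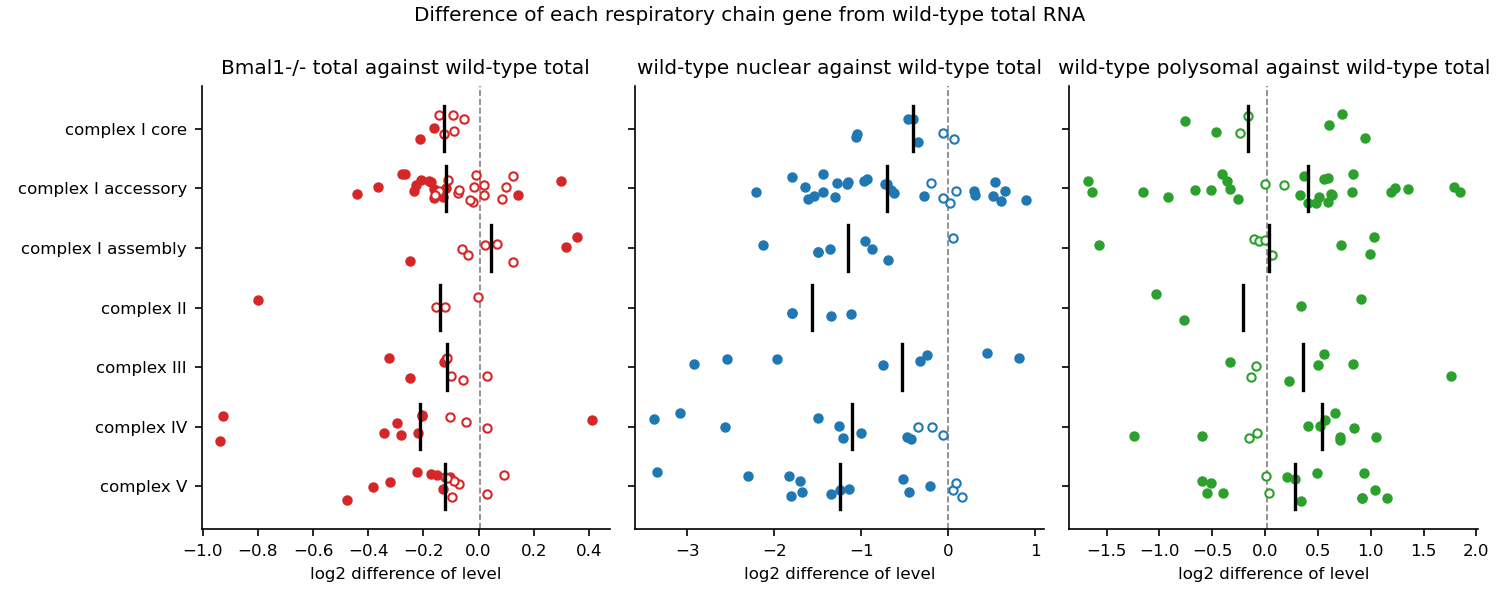
Log2 difference from wild-type total RNA for Bmal1-/- total, nuclear and polysomal RNA, with a point per tested member grouped by complex; filled points passed the test, the bar is the group's median, the dashed line is the median of all genes tested, and Atp5s and Atp5sl are not drawn. In Bmal1-/- RNA most points lie a little below 0 with Cox5b far below; in nuclear RNA most lie well below 0, and in polysomal RNA they spread to both sides.

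Nuclear against total RNA of wild-type liver asks how much of a transcript is in the nucleus relative to the other genes. Members were low there: 10 of 85 were higher and 62 lower by edgeR's quasi-likelihood test, 84.7% in all, where 83.8% of all genes were called, 41.6% higher and 42.1% lower. The median log2 difference was -0.96 for members and -0.01 for all genes. In 25 members no nuclear library reached the range of the total RNA libraries, all of them lower; over all genes 7.49% did not overlap. With library totals 12 members were higher and 61 lower, and the median was -0.90. Markers differed as well: 4 of 5 sinusoidal endothelial, 3 of 5 Kupffer cell, 2 of 4 hepatocyte and 2 of 4 erythroid markers were lower in nuclear RNA. Of the 5 stellate cell markers 3 were higher and 2 lower, with median sums of 157 CPM in nuclear and 277 in total RNA. Their part in the member differences was not tested.

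All 4 subunits of complex II were lower in nuclear RNA, as were 12 of 15 of complex V, 9 of 12 of complex IV, 7 of 8 assembly factors and 5 of 7 core subunits of complex I, with no member of these groups higher. The 10 higher members were 7 of 29 accessory subunits of complex I, of which another 18 were lower, 2 of 8 of complex III (6 lower) and Atp5sl.

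Cox7b, a small structural subunit of complex IV, fell most. Its total RNA libraries ranged from 209 to 440.1 CPM (median 252) and its nuclear libraries from 11.3 to 54.6 CPM (median 26.4), without overlap (log2 difference -3.38, SE 0.11, edgeR adjusted p 2.29e-40). Atp5j, the coupling factor of the ATP synthase stalk, ranged from 36.3 to 164 CPM (median 114) in total and 4.21 to 28.9 CPM (median 10.05) in nuclear RNA, again without overlap (log2 difference -3.35, SE 0.12, edgeR adjusted p 1.99e-36). The next falls were Ndufa4 (145 ± 26.01 to 17.6 ± 4.37 CPM, log2 -3.09), Uqcrfs1 (189 ± 39.9 to 25.7 ± 8.62, log2 -2.93), Cox5a, a matrix-side subunit of complex IV (301 ± 31.9 to 52.6 ± 15.3, log2 -2.57) and Uqcrb (197 ± 21.99 to 35.2 ± 10.6, log2 -2.55). None of these 6 overlapped between the series.

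The largest rise was Ndufa3, from 46.3 to 211 CPM (median 167) in total to 151 to 537 CPM (median 313) in nuclear RNA (log2 difference 0.89, SE 0.09, edgeR adjusted p 7.64e-15). There 32 nuclear libraries lay above the highest total RNA library, and the lowest total RNA value was that of ZT2 replicate 4. The other large rises were Uqcrc1 (102 ± 27.9 to 184 ± 42.7 CPM, log2 0.82), Ndufa11 (98.9 ± 14.5 to 159.9 ± 42.6, log2 0.65), Ndufb8 (log2 0.60), Ndufa7 (log2 0.54) and Ndufb7 (log2 0.52). Ndufb7 was not called in replicates 4 to 6 alone (edgeR adjusted p = 0.0545). Uqcrc1 and Uqcrc2, the paired core proteins of complex III, thus stood on opposite sides, with log2 differences of 0.82 and -1.97. Among core subunits of the complexes, Sdha, Sdhb, Atp5a1, Atp5b and Atp5c1 had log2 differences of -1.35, -1.12, -1.15, -1.68 and -2.30. Ndufv1 and Ndufs8 had -0.06 and 0.07 and were not called.

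Member genes are short, with a median span of 7394 bp against 21841 bp for genes of a mean of 10 counts or more. Across genes, as a description only, the nuclear difference and the span had a Spearman correlation of -0.26 over 85 members and of 0.07 over 11227 genes. For the polysomal difference it was -0.16 and -0.13, and for the Bmal1-/- difference 0.37 and 0.01. The genes share the same libraries.

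Polysomal against total RNA asks how a transcript is represented among those on ribosomes. Here 48 of 85 members were higher and 22 lower by edgeR's quasi-likelihood test, 82.4% in all, where 76.0% of all genes were called, 38.8% higher and 37.2% lower. The median log2 difference was 0.34 for members and 0.02 for all genes. Without polysomal replicate 1, the libraries with lung markers, 46 were higher and 27 lower with a median of 0.27. Complex IV had 8 higher and 2 lower of 12 tested, complex V 9 and 4 of 15, complex III 5 and 1 of 8, the accessory subunits of complex I 17 and 10 of 29, its core 3 and 2 of 7, its assembly factors 3 and 1 of 8, and complex II 2 and 2 of 4.

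The 5 members whose polysomal and total libraries did not overlap, where 4.44% of all genes did not, were all higher: Ndufc1, Ndufs6, Uqcrc1, Ndufc2 and Ndufb6. Ndufc1 ranged from 123 to 178 CPM (median 144) in total and from 359 to 804 CPM (median 535) in polysomal RNA (log2 difference 1.84, SE 0.06, edgeR adjusted p 2.89e-39, 3.58-fold). Ndufs6, a zinc-binding subunit of the matrix arm, ranged from 62.8 to 198 CPM (median 155) and from 359 to 893 CPM (median 536) (log2 difference 1.79, SE 0.07, edgeR adjusted p 4.16e-34). Uqcrc1 ranged from 9.78 to 147 CPM (median 99.3) and from 164 to 788 CPM (median 352) (log2 difference 1.76, SE 0.14, edgeR adjusted p 6.19e-19). The lowest total RNA values of Ndufs6 and Uqcrc1 were those of the library of ZT2 replicate 4. The next rises were Ndufc2, the partner of Ndufc1 in the membrane arm (145 ± 22.3 to 385 ± 69.8 CPM, log2 1.35), Ndufa11 (98.9 ± 14.5 to 245 ± 97.7, log2 1.23) and Ndufb6 (96.8 ± 9.38 to 232 ± 53.8, log2 1.19).

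The largest falls in polysomal RNA were also in complex I. Ndufa5 ranged from 137 to 195 CPM (median 165) in total and from 20.3 to 161 CPM (median 51.3) in polysomal RNA, where 35 libraries lay below the lowest total RNA library (log2 difference -1.68, SE 0.11, edgeR adjusted p 3.92e-22). Ndufv3, an accessory subunit beside the NADH site, went from 250.3 ± 42.99 to 85.1 ± 51.7 CPM (log2 difference -1.64, SE 0.15, edgeR adjusted p 4.40e-16). Ndufaf2 had log2 -1.58, Cox7b -1.24, Ndufa10 -1.16 and Sdhb -1.04. Within complex II the soluble subunits Sdha and Sdhb were lower (-0.76 and -1.04) and the membrane anchors Sdhc and Sdhd higher (0.34 and 0.91). Without the wild-type library of ZT2 replicate 4 Sdhd had 1.22. Sdhc was not called in replicates 1 to 3 alone and Sdhd not in replicates 4 to 6 alone (edgeR adjusted p = 0.349 and 0.112).

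All 3 c-ring genes rose in polysomal RNA, with log2 differences of 1.15 for Atp5g1, 1.04 for Atp5g2 and 0.92 for Atp5g3. The catalytic-head subunits were nearer to 0, with 0.49 for Atp5a1 and 0.21 for Atp5b, and the latter turned to -0.45 in replicates 4 to 6 alone. Atp5b was not called without polysomal replicate 1 (log2 0.14, edgeR adjusted p = 0.194) or without wild-type ZT2 replicate 4 (adjusted p = 0.0739), and Atp5g2 was not called in replicates 1 to 3 alone (adjusted p = 0.136). Of 4 hepatocyte markers 3 were lower in polysomal RNA, and 3 of 4 erythroid markers were higher, with median sums of 4496 CPM in polysomal and 1379 in total RNA. Of 5 sinusoidal endothelial markers 4 were lower, and of 5 stellate cell markers 3 were lower. Of 5 Kupffer cell markers 2 were higher and 2 lower. Their part in the member differences was not tested.

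Poly(A) sites within a gene were compared by each site's share of the gene's site counts. In nuclear RNA all 39 members tested had at least 1 site whose share differed from total RNA by edgeR's quasi-likelihood test, where 92.8% of all genes did, and 88 of 95 member sites differed, where 78.8% of all sites did. The most distal site was higher in 32 of the 39 members and lower in 4, or 82.1% and 10.3%, against 42.9% and 34.5% of all 3201 genes. The starting points differed: in total RNA that site held a median of 77.7% of its gene's counts in members and 41.4% in all genes. Its share differed by a median of 8.96 percentage points in members and of 2.05 in all genes. In polysomal RNA 30 of 42 members were called, where 87.5% of all genes were, through 62 of 105 sites, where 70.4% of all sites were called. The most distal site was higher in 20 and lower in 6 of these 42, or 47.6% and 14.3%, against 52.3% and 19.9% of all genes.

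Cox7b showed the largest shift. Its site at X:106021948-106021967 (GRCm38, plus strand), 483 bp before the RefSeq gene end and just past the main site at X:106021750-106021932, held 1.44 to 6.53% of the gene's site counts in the 36 total RNA libraries and 4.04 to 85.7% in the nuclear ones. The means were 3.09% ± 1.19 and 54.4% ± 16.8 (log2 difference of the share 4.14, SE 0.13, edgeR adjusted p 2.25e-37), 27.9% ± 15.2 in polysomal and 3.56% ± 1.21 in Bmal1-/- total RNA. The nuclear range overlapped that of total RNA at its lower end, and the polysomal libraries, from 9.13% up, all lay above it.

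Ndufa1, a membrane-arm subunit, had the same direction at X:37187588-37187607, the gene's annotated end, with 20.7% ± 10.3 in total and 67.6% ± 14.5 in nuclear RNA (log2 difference of the share 1.73, SE 0.12, edgeR adjusted p 2.84e-21) and 31.6% ± 11.01 in polysomal RNA. Cox5b had 39.1% ± 13.1 of its counts at its most distal site, 1:36693357-36693411, in total RNA, 68.3% ± 13.4 in nuclear (log2 difference of the share 0.82, SE 0.08, edgeR adjusted p 2.03e-13) and 61.9% ± 12.7 in polysomal RNA (log2 difference of the share 0.67, SE 0.08, edgeR adjusted p 1.40e-10). Atp5g2 had 11.6% of its counts at 15:102662856-102662869 in total and 39.4% in nuclear RNA, at a low mean of 53.1 counts per library.

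In polysomal RNA the largest changes were in Atp5h and Ndufa12. Atp5h, a peripheral-stalk subunit of the ATP synthase, had 76.8% ± 9.18 of its counts at 11:115415729-115415882 in total RNA, 43.05% ± 11.97 in polysomal (log2 difference of the share -0.82, SE 0.08, edgeR adjusted p 2.45e-14) and 52.7% ± 11.8 in nuclear RNA. Ndufa12 had 81.1% ± 6.996 at 10:94220839-94220956 in total and 50.04% ± 16.8 in polysomal RNA (log2 difference of the share -0.70, SE 0.09, edgeR adjusted p 8.59e-10), while its share at 10:94199952-94200002, which lies 21438 bp before the gene end, went from 13.96% to 43.9%. Uqcr11 had 71.9% ± 7.15 at 10:80402992-80403155 in total and 89.5% ± 5.21 in polysomal RNA (log2 difference of the share 0.32, SE 0.03, edgeR adjusted p 1.52e-16). Sdhd had 49.6% ± 14.3 at 9:50596436-50596518 in total RNA against 22.4% ± 22.1 in nuclear and 25.1% in polysomal RNA. In the nuclear comparison Sdhd had a low mean of 53.5 counts per library, near the minimum of 50. Without wild-type ZT2 replicate 4 this nuclear difference was not tested. Of the fits on part of the replicates, only that of replicates 4 to 6 tested it.

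**Figure D4:**
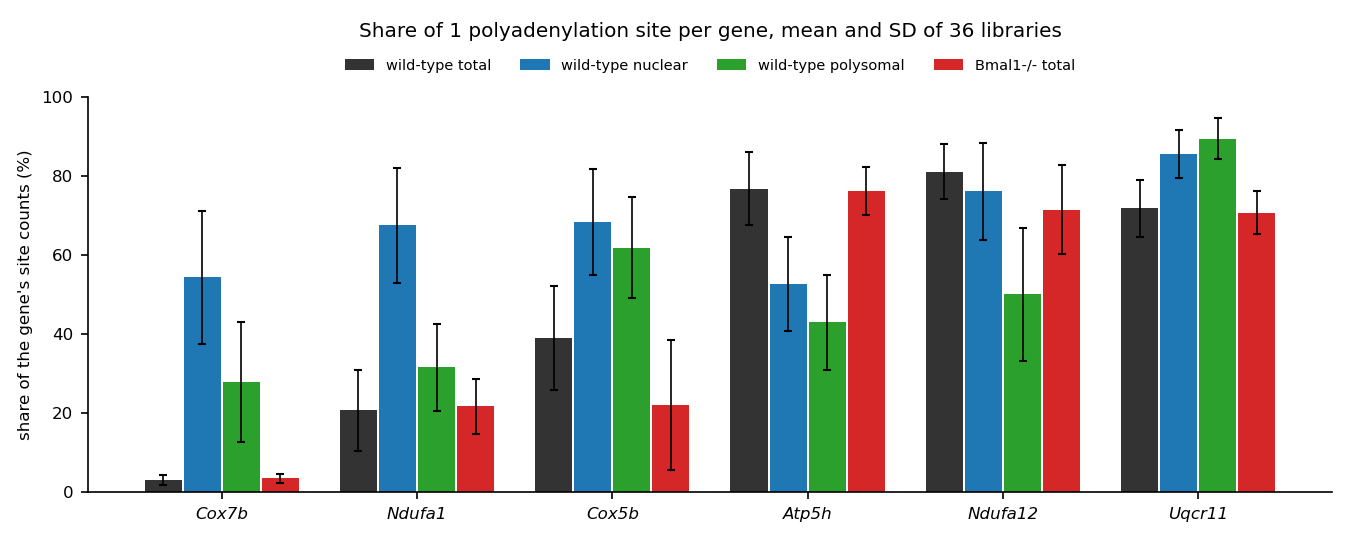
Share of a gene's poly(A) site counts at 1 site each of Cox7b, Ndufa1, Cox5b, Atp5h, Ndufa12 and Uqcr11 in the 4 series; bars are means over 36 libraries and error bars are SD. The Cox7b and Ndufa1 sites are high in nuclear RNA, the Atp5h and Ndufa12 sites are low in polysomal RNA, and Cox5b is the lowest in Bmal1-/- RNA.

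In Bmal1-/- liver site shares differed in 6 of 42 members, where 16.9% of all genes differed, and at 11 of 105 sites, where 8.56% of all sites did. These genes were Cox5b, Ndufa12, Sdha, Ndufab1, Atp5e and Ndufaf4. Sdha had 71.1% at 13:74322742-74323079 in wild-type and 76.4% in Bmal1-/- RNA, Ndufab1 85.0% and 89.3% at 7:122090858-122090964, Atp5e 88.0% and 91.7% at 2:174461067-174461228, and Ndufaf4 8.25% and 6.57% at 4:24903473-24903505. Ndufa12 had 71.5% ± 11.2 at its main site against 81.1% ± 6.996 in wild-type RNA (log2 difference of the share -0.18, SE 0.04, edgeR adjusted p 0.00366). Its first site, 10:94199100-94199132, went from 4.93% to 14.4%; the Bmal1-/- libraries held 10.5 to 28.1% there in replicates 1 to 4 and 1.33 to 5.45% in replicates 5 and 6. In replicates 4 to 6 alone the Ndufa12 call was lost (edgeR adjusted p = 0.488). In replicates 1 to 3 alone Ndufab1, Atp5e and Ndufaf4 were not called (edgeR adjusted p = 0.379, 0.404 and 0.404), while Sdha was called in both groups of 3.

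The most distal Cox5b site was lower in Bmal1-/- RNA, with 22.2% ± 16.4 against 39.1% ± 13.1 in wild-type RNA (log2 difference of the share -0.87, SE 0.21, edgeR adjusted p 0.00384), while the site at 1:36693194-36693264 went from 52.1% to 64.0%. The Bmal1-/- libraries fell into separate sets. In 14 of 36 the share was between 2.54 and 6.28%, in 22 it was between 21.1 and 49.5%, and none lay between. The 14 were 4 of replicate 3, 4 of replicate 4, 3 of replicate 5 and 3 of replicate 6, and none of replicates 1 and 2. By time, 3 were at ZT2, 4 at ZT6, 4 at ZT10 and 1 each at ZT14, 18 and 22. These 14 had 46.0 to 102 CPM of Cox5b in all, and the other 22 had 81.0 to 229 CPM. No library of the wild-type series lay under 10%, with ranges of 24.1 to 94.6% in total, 28.5 to 89.8% in nuclear and 41.8 to 83.3% in polysomal RNA. In replicates 1 to 3 alone the difference was -7.05 points and was not called (edgeR adjusted p = 0.580). The highest wild-type share, 94.6%, was that of ZT2 replicate 4, and without it the difference was -15.3 points.

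**Figure D5:**
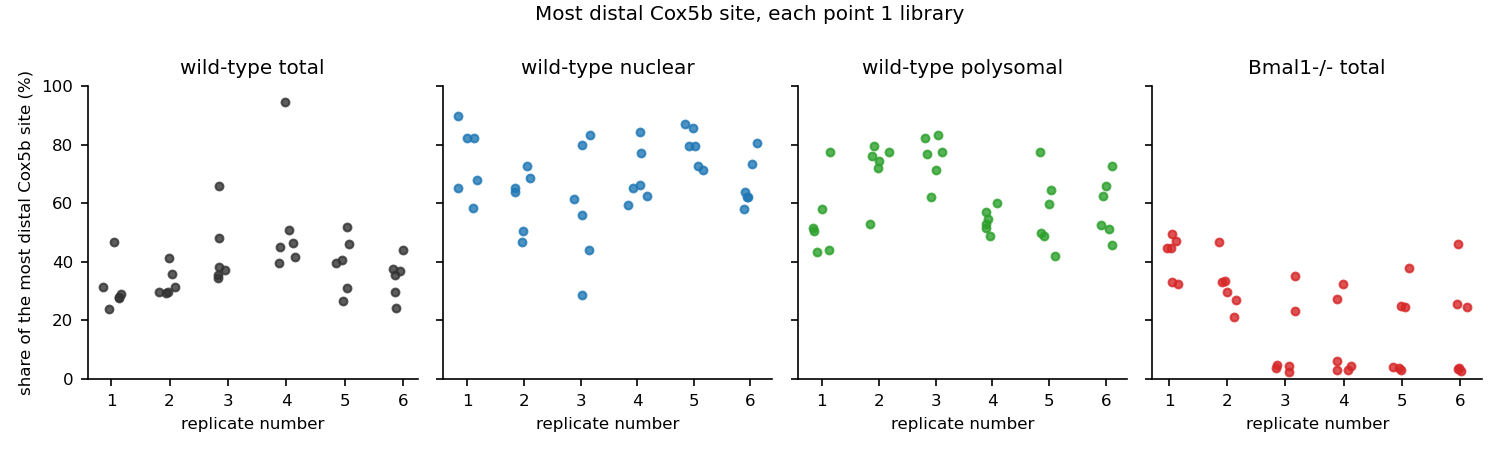
Share of the most distal Cox5b poly(A) site in each library by replicate number, with a panel per series. Bmal1-/- libraries of replicates 3 to 6 fall into a set of 2.54 to 6.28% and a set above 21.1%; the other series have no library under 10%.

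Other genes of the pathway, kept in lists outside the symbol rule, were set beside the members. Of 50 tested partners and assembly genes, 8 were higher and 7 lower in Bmal1-/- liver with a median of 0.02, where 41 of 85 members were called. Over all genes 44.1% were called, 22.4% higher and 21.7% lower, which is the share to set beside each list. Among the partners Cycs, cytochrome c, was lower (log2 -0.37) and Sco2, a copper chaperone of complex IV, was higher (0.47). Of 9 tested mitochondrially encoded subunits 1 was higher and 6 lower, with a median of -0.46 and mt-Cytb at -0.77. Of 13 regulators 4 were higher and 1 lower, among them Ppargc1a, the coactivator of mitochondrial biogenesis, at 0.52. The 77 mitochondrial ribosomal proteins had 10 higher and 14 lower, and the 79 cytosolic ribosomal proteins had 65 higher and 5 lower with a median of 0.34.

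In nuclear RNA the medians were -0.54 for the partners, -0.80 for mitochondrial and -1.05 for cytosolic ribosomal proteins, beside -0.96 for members. In polysomal RNA they were 0.33, 0.15 and -1.41, beside 0.34 for members. The mitochondrially encoded subunits, which are translated inside the organelle, were at -1.14 with 8 of 9 lower, where 37.2% of all genes were lower. In wild-type total RNA 7 of 50 partners were rhythmic, where 18.9% of all genes were, namely Sco2, Coq10b, Cycs, Higd1a, Coa3, Cox14 and Ttc19, and 1 of 13 regulators, Ppargc1b. The rhythms of Sco2, Coq10b and Ppargc1b differed between the genotypes, as did those of Ndufaf4 and Ndufaf6. These were 2 of 50 partners, 1 of 13 regulators and 2 of 85 members, where 5.18% of all genes differed.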

How the data were processed

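RNA of 144 liver libraries was measured by 3′ mRNA sequencing. The authors deposited raw counts per gene and per poly(A) site, 1 column per library; per the submitters' processing notes STAR 2.4.2a, edgeR and HOMER were used with mm10 or GRCm38.p5. No column was left without a sample. Nuclear and polysomal RNA are as named in the labels. Counting rules for reads that map to several places are not given in the sources used here. The deposited counts were used as they are, and CPM were computed on a library's gene counts. Among 360 library pairs within groups 0 held the same values; the lowest chi-square, divided by its degrees of freedom, was 4.03.

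Under R 4.3.3, edgeR version 4.0.16 tested genes averaging 10 counts or more (TMM, robust quasi-likelihood F test), with Benjamini-Hochberg adjustment over all genes tested and a threshold of 0.05. A level difference is the contrast of 6 time-point means, and a rhythm is a cosine and sine of 24 h. Cox6a2, Cox6b2, Cox7b2, Cox8b, Cox8c and Ndufa4l2 were too low to be tested. Site usage was fitted on site counts with the gene's summed site counts as offset, for sites with at least 5% of their gene and genes with at least 50 counts. Sites were given to 7324 genes, 72 of them members, through RefSeq gene spans on the same strand and up to 1000 bp past the end. The main fits of level, rhythm, rhythm difference and site usage were tested on simulated counts modelled on wild-type and Bmal1-/- total RNA. The other scripts were not. Alternatives were DESeq2 1.42.0, other scaling, filters, subsets of replicates and a replicate block.

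Members, lists, motifs and markers were chosen with earlier results of these data known. Named with values were core subunits (1 is not reported here), isoforms, the 6 largest called rises and falls per level comparison among members with 50 counts and the same direction at all 6 times, all called rhythms, and the largest site differences. Settings without wild-type ZT2 replicate 4, without polysomal replicate 1 in the rhythm and site tests and with library totals were added after seeing the data. Gene names matched RefSeq for 91 members, 3 of them by synonym.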

Additional observations from a re-analysis of the deposited data

Results flagged for a closer look

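In 19 of 192 groups of 6 libraries 1 value stood apart from the other 5, by Dixon's criterion. Only a few members were examined in this way. Chance gives about 1 in 20 groups, so single values apart can arise by chance. Most of the 19 were values of Sdhd, the membrane anchor of complex II. In wild-type total RNA replicate 4 had 165 CPM at ZT2, 24.1 at ZT10 and 46.2 at ZT18. In nuclear RNA replicate 4 had 7.65 CPM at ZT2, 12.7 at ZT10, 15.5 at ZT14, 16.9 at ZT18 and 11.6 at ZT22. In polysomal RNA Sdhd had 109.8 CPM in ZT2 replicate 1, 51.8 in ZT10 replicate 6 and 289.9 in ZT22 replicate 6, where the others at ZT22 had at most 30.1. In Bmal1-/- RNA it had 47.8 CPM in ZT22 replicate 2, where the others had at most 5.91.

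The wild-type total library of ZT2 replicate 4 also had Cox7a2l at 66.0 CPM, where the others had at least 156, and Cox7b at 440.1 CPM, where the others had at most 303. Ndufaf4 had 44.1 CPM in wild-type ZT14 replicate 4, below the other 5 libraries, and 62.4 and 62.2 CPM in Bmal1-/- ZT6 replicate 6 and ZT18 replicate 3, above the others. Ndufc1 had 113 CPM in Bmal1-/- ZT22 replicate 1, below the others, and Cox5b had 174 CPM in Bmal1-/- ZT6 replicate 2, where the others had at most 102.

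Between the genotypes the daily rhythm in total RNA differed for Ndufaf4 (adjusted p = 0.0345) and Ndufaf6 (adjusted p = 0.0145) by the interaction term of edgeR's quasi-likelihood test. For both genes the cause was not tested.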

How the results depend on the processing

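Of the values named for single members 1060 kept their direction and call, 73 lost the call, 3 gained it, 27 moved and 3 turned: Ndufab1 in Bmal1-/- liver to -0.10 and Cox8a in nuclear RNA to 0.042 in replicates 1 to 3 alone, and Atp5b in polysomal RNA to -0.45 in replicates 4 to 6 alone. Of the counts and medians over members 183 held and 29 moved; the cause was not tested. For Bmal1-/- levels 41 calls became 17 (3 higher, 14 lower) in a fit of all 4 series, 20 (15 lower) in replicates 4 to 6 alone and 25 (13 higher, 12 lower) with library totals; without the filter 3 were higher; the median became -0.18 in replicates 1 to 3 alone and -0.019 with library totals. Rhythmic members in wild-type total RNA, 3 by the design chosen, were 1 without the filter and 1 with all 4 series, 5 in replicates 1 to 3, 0 in replicates 4 to 6 and 11 with the replicate block, Atp5c1, Atp5g1, Cox7a2l and Uqcrh of complexes III to V among them. Over all genes the replicate block called 3041 genes, against 2260. The nuclear count of 1 became 0 in replicates 1 to 3. The polysomal count of 0 became 1 with DESeq2, 13 with all 4 series, 3 in replicates 4 to 6 and 3 with the replicate block. Over all genes those settings called 1097, 2733, 607 and 1505 genes, against 845. Differences in rhythm in Bmal1-/- liver, 2, were 0 with all 4 series and 0 in either group of 3 replicates. With a site share of at least 10%, 5 sites in 3 members differed in Bmal1-/- RNA and 38 sites in 19 members in polysomal RNA, from fewer sites tested; without wild-type ZT2 replicate 4, 10 members differed in Bmal1-/- RNA.

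Over all genes, rhythmic genes in wild-type total RNA went from 2260 to 1017 (all 4 series), 1411 (any difference among times), 1341 (replicates 1 to 3), 621 (replicates 4 to 6) and 3041 (replicate block). In nuclear RNA they went from 669 to between 174 (replicates 1 to 3) and 996 (replicate block), and in polysomal RNA from 845 to between 115 and 2733. Genotype differences in rhythm went from 626 to between 186 (all 4 series) and 851 (replicate block). The labels do not tie replicate numbers to animals, and pairing was taken as shown only where each pair of same-numbered libraries correlated over 0.1. This held for 33, 0 and 13 of 36 pairs, so no comparison was paired, though the nuclear numbers come near: the mean correlation of deviations between same-numbered libraries was 0.278 for nuclear, -0.107 for polysomal and 0.0576 for Bmal1-/- against total RNA, and 26, 0 and 13 of 36 correlated best with their own number. With a block per number or per number and time, 0 members differed in rhythm between nuclear and total RNA. The replicate block gave 6 higher and 41 lower members in Bmal1-/- RNA, 10 and 64 in nuclear and 46 and 25 in polysomal RNA. At this depth 6 members could not be tested.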

Other observations

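The members apart from the complexes, Atp5s, a factor linked to ATP synthase coupling, and Atp5sl, had 2.39 ± 0.927 and 15.3 ± 2.78 CPM ± SD over the 36 wild-type total libraries. In nuclear RNA Atp5s was lower (log2 -1.30) and Atp5sl higher (log2 0.51) by edgeR's quasi-likelihood test. Neither was called in Bmal1-/- liver, with log2 differences of 0.22 and -0.11.

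The members with an E-box in the start window, a set looked at after its values were known, had small differences in Bmal1-/- liver. Atp5f1 was lower (log2 -0.13), and Atp5g1, Atp5g3, Atp5l, Atp5sl, Ndufa7 and Ndufv1, at -0.07, -0.09, 0.03, -0.11, 0.09 and -0.09, were not called.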
